A study of Mus musculus with 12 samples.

Results

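Terc-/- (KO) mouse cells were compared between day 8 and day 15 of differentiation, and most genes had small changes. The arrays were chosen by their titles, 2 of KO cells at day 15 and 2 of KO cells at day 8, which makes 4 of the 12 arrays of the series, and all 45037 probe sets that are not controls were tested. Both days carry the same labels apart from the day, namely strain C57BL/6, genotype Terc-/- and differentiated embryonic stem (ES) cells. The ES cells had been dissociated, kept for 4 days in hanging drops as embryoid bodies, which are floating aggregates, in medium without LIF (the cytokine that holds mouse ES cells undifferentiated), and then plated into wells until they were collected. The labels of the undifferentiated KO cells give their generation as G3/4. The study's text speaks of G4 cells on the arrays and lists a single ES line for that generation, A49, and a single WT line, N33. The array titles call the arrays of each group biological replicates. No source used here says that these came from separate cultures, so p-values measure only the spread between these arrays. The 4 arrays of WT cells of the same strain and days entered the fit and serve as a yardstick, whereas the 4 arrays of day 0 were scaled apart and were left out. Per the study's methods, ES lines were maintained on feeder layers of mouse embryonic fibroblasts, and how many of these cells remained at day 8 or day 15 was not measured. No probe set carried the symbol of Terc alone, and the deleted gene was not analysed here.

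Terc is the RNA of telomerase, the template from which the enzyme copies telomere repeats. When ES cells lose LIF and aggregate, factors of the naive and then of the primed epiblast are normally shut down, a wave of primitive streak genes passes, and derivatives of the germ layers appear. Among these, the visceral endoderm of the yolk sac secretes the same plasma proteins as the later liver, and mesenchyme lays down collagens and small proteoglycans.

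The change from day 8 to day 15 in KO cells was small on the log2 scale, and so was the difference between replicates. Over the 9468 genes with a mean intensity of at least 100 on the 4 KO arrays, the median absolute log2 change between days was 0.14, against a median absolute difference of 0.08 between both day 8 arrays and of 0.12 between both day 15 arrays. Of these genes, 80.4% had an absolute log2 change under 0.3 and 99.2% under 1. In WT cells the same genes had a median absolute change of 0.29, with median pair differences of 0.25 at day 8 and 0.16 at day 15, and 50.7% had one under 0.3. In both genotypes the median change was 1.18 to 1.83 times the median pair difference of either day. A change is a difference between means of 2 arrays and a pair difference is one between single arrays. Across all probe sets, the correlation of log2 intensity was 0.995 between the KO day 8 arrays, 0.994 between the KO day 15 arrays, and 0.990 to 0.992 between a day 8 and a day 15 array. Array medians lay between 50.6 and 53.1 over the 8 arrays of both days.

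**Figure D1:**
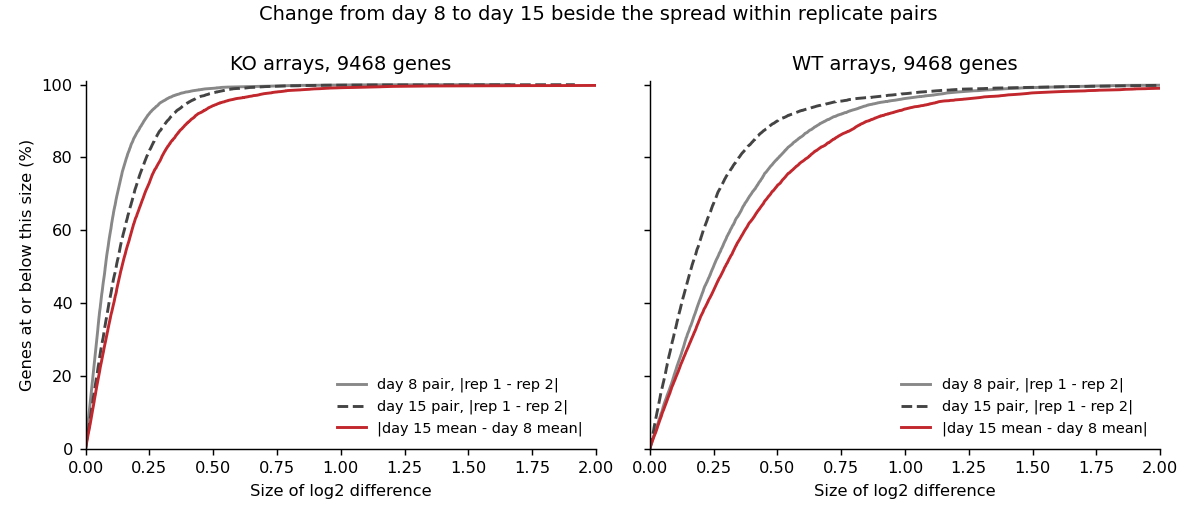
Share of genes (vertical axis, percent, 9468 genes with a mean intensity of at least 100 on the 4 KO arrays) whose absolute log2 difference is at or below the value on the horizontal axis, for the day 8 pair, the day 15 pair and the change between day means, with KO arrays on the left and WT arrays on the right. In both genotypes the curve of the change lies to the right of the pair curves by its median (0.14 against 0.08 and 0.12 in KO, 0.29 against 0.25 and 0.16 in WT), and all 3 WT curves have larger medians than their KO counterparts.

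3 probe sets passed the test in KO cells. In a limma fit over the 8 arrays of days 8 and 15, with Benjamini-Hochberg adjustment over all probe sets, 2 probe sets were higher at day 15 (0.00444% of those tested) and 1 was lower (0.00222%), while 3725 (8.27%) had an unadjusted p under 0.05. The same fit called 4893 probe sets (10.9%) in WT cells, or 1518 to 7472 with any 1 array left out (1518 without replicate 1 of WT day 15). With the 4 arrays of each genotype fitted alone, the order was the other way, with 1273 probe sets in KO cells and 367 in WT cells. These arrays were made from whole cultures, so fewer cells of a type and less RNA per cell cannot be told apart in any value given here. Igfbp1, a secreted protein that binds insulin-like growth factors, had intensities of 19.3 and 17.8 at day 8 and 184 and 160.4 at day 15, in the order of replicates 1 and 2 as in all values here. The groups did not overlap, and it rose by 3.21 on the log2 scale (SE 0.27, adjusted p = 0.0338). Crybg1, a crystallin-domain protein of the actin cytoskeleton, had intensities of 37.8 and 34.1 at day 8 and 14.0 and 13.0 at day 15 and fell by 1.41 on the log2 scale (SE 0.14, adjusted p = 0.0338), also without overlap. Zic1, a zinc finger factor of neural and mesodermal progenitors, was read by 2 probe sets, of which 1 had intensities of 7.04 and 6.72 at day 8 and 19.05 and 23.2 at day 15. It rose by 1.61 on the log2 scale (SE 0.16, adjusted p = 0.0338), with day 8 values far under the arrays' lower quartile of about 20. Its brighter probe set gave 38.7 and 48.8 at day 8 and 100.5 and 162 at day 15 and did not pass on 8 arrays (log2 change 1.55, adjusted p = 0.464), though it did on the 4 KO arrays (adjusted p = 0.00901). The dimmer day of each of the 3 probe sets lay under that quartile. With 32 added before log2 the changes were 2.01 for Igfbp1 (adjusted p = 0.179), -0.58 for Crybg1 (0.0263) and 0.45 for Zic1 (0.101). None of the 3 calls held when any 1 of the 4 KO arrays was left out (adjusted p between 0.251 and 0.558), and those of Crybg1 and Zic1 did not hold without either WT day 15 array (0.0547 and 0.056).

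Because WT pairs spread more widely than KO pairs, the same model was also fitted to the 4 KO arrays alone. It called 656 probe sets higher (1.46%) and 617 lower (1.37%), or, with each gene represented by its brightest probe set, 432 genes higher (2.37%) and 344 lower (1.89%). The number of calls moved with single arrays, from 1273 to 232 without replicate 1 of day 8 and to 671 without replicate 2 of day 8. It also moved with the intensity trend in the variance, and 22 probe sets passed without that trend, 1190 without robust moderation and 23 without either, all alternatives added after seeing the data. Of those 23, 22 were higher and stood for 16 genes, among them Igfbp1, Zic1, Lum, Dcn, Col1a1, Col1a2, Apoa1, Ttr, Apob, Fgb and Fabp2. The 1 lower was Crybg1. In the text below, rose and fell are kept for the 3 probe sets that passed on 8 arrays, and other genes are given as higher or lower with their values. An adjusted p on the 4 KO arrays refers to the fit with trend and robust moderation. Counts of list members that passed on the 4 KO arrays stand beside shares over all genes of 2.37% higher and 1.89% lower. Among the 9729 genes with a mean of at least 100 at day 8 or day 15 in KO cells, 78 were at least 1 log2 unit higher and 14 at least 1 lower, against 584 and 337 of 10005 such genes in WT cells. The genes named below are members of 50 lists by function or among the changes that ranked highest by size or by intensity, and within the lists those beyond the brightest 4 were chosen after their values were seen.

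Secreted proteins of the yolk sac and liver had the highest median change of the 50 lists. Of 19 measured genes of this list, none passed on 8 arrays (9 had an unadjusted p under 0.05), 10 passed on the 4 KO arrays as higher and none as lower, and 16 had both day 15 arrays above both day 8 arrays (background 24.4% of all genes). The list's median log2 change was 1.33, beside 0.00 over all genes and 2.41 for the list in WT cells. The promoters of Igfbp1 and of 3 members of the list are shown because these genes were higher together, each as the 250 bases before the RefSeq start on the plus strand of GRCm38.p6. Capitals mark a match on either strand to TATAAA (bound by the general factor TBP).
Igfbp1, chr11:7197537-7197786: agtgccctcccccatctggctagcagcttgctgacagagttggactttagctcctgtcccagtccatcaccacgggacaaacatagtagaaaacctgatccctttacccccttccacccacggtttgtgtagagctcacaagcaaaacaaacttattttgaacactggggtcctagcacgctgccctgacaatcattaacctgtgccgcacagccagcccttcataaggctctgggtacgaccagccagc
Afp, chr5:90490464-90490713: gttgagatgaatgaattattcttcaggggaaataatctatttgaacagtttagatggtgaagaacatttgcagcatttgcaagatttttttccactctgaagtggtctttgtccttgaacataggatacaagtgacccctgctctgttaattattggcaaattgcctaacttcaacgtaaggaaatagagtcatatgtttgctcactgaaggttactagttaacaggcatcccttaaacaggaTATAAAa
Apoa1, chr9:46228380-46228629: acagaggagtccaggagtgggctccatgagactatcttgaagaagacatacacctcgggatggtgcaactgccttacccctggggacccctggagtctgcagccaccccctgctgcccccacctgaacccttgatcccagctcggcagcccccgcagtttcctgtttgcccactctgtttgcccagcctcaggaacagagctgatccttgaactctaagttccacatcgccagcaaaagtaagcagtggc
Apob, chr12:7977427-7977676: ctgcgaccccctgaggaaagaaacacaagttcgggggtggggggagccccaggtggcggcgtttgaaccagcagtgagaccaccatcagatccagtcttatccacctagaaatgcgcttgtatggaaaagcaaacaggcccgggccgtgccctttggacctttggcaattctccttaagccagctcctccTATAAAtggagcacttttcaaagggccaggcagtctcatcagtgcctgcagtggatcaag
TATAAA was found 7 bases before the start of Afp as annotated and 60 before that of Apob, and it was not in the windows of Igfbp1 and Apoa1. In windows of the same length, 12.4% of 32851 promoters held it. The letters AGATAA, which the erythroid and endoderm factors Gata1 and Gata4 bind, were in none of the 4 windows and in 9.99% of all. The letters CAAAGTCCA, which Hnf4a binds, were also in none of the 4 and in 0.384% of all.

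Afp, the fetal albumin of visceral endoderm and liver, had intensities of 138 and 282 at day 8 and 2936 and 1582 at day 15. Both day 15 arrays stood above both day 8 arrays, by 3.45 on the log2 scale (SE 0.51), but the replicates of each day were far apart and it passed neither fit (adjusted p = 0.325 on 8 arrays and 0.0828 on the 4 KO arrays). Its other 4 probe sets reached as low as -0.22. Ttr, the carrier of thyroid hormone and retinol-binding protein, was measured at 1082 and 824 at day 8 and 5404 and 4799 at day 15. Its 4 probe sets had log2 changes between 2.39 and 2.56, and the brightest passed on the 4 KO arrays but not on 8 (adjusted p = 6.37e-05 and 0.392). Apoa1, the main protein of high density lipoprotein, was measured at 104 and 152 at day 8 and 732 and 589 at day 15. Its log2 change was 2.39 (SE 0.36, adjusted p = 4.30e-04 on the 4 KO arrays and 0.273 on 8). Apob, which carries low density lipoprotein, was measured at 171 and 186 at day 8 and 1097 and 872 at day 15. Its log2 change was 2.45 (SE 0.47, adjusted p = 2.98e-05 on the 4 KO arrays and 0.404 on 8), although its second probe set had a log2 change of 0.22. Rbp4, the plasma carrier of retinol, was at 216 and 409 at day 8 and 1458 and 1517 at day 15 (log2 change 2.32, adjusted p = 0.0304 on the 4 KO arrays). In each of these 5 genes the dimmer day 15 array was over 3 times as bright as the brighter day 8 array.

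Apom, a further lipoprotein component, was at 133 and 124 at day 8 and 821 and 460.1 at day 15. Fgb, the beta chain of fibrinogen, was at 25.8 and 24.3 at day 8 and 88.6 and 81.4 at day 15, close to the dim end of the arrays at day 8. Both passed on the 4 KO arrays (adjusted p = 0.00616 and 6.25e-04). Apoe, a lipoprotein component that was bright already, was at 1581 and 1561 at day 8 and 2199 and 1938 at day 15. Spink1, a trypsin inhibitor, was at 6676 and 6641 at day 8 and 8179 and 8894 at day 15. The moves of this pair were smaller, with log2 changes of 0.39 and 0.36, and both passed on the 4 KO arrays (adjusted p = 0.0275 and 0.00845). Cubn and Amn form the receptor complex by which visceral endoderm takes up protein. Cubn was at 262 and 141 at day 8 and 426 and 149 at day 15. Amn was at 162 and 98.2 at day 8 and 189.7 and 119 at day 15. Both overlapped between days, replicate 1 was above replicate 2 at each day, and the difference between replicates exceeded that between days.

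The endoderm list, which holds transcription factors along with Shh and some surface proteins, did not move as a whole. Of 14 measured, 2 passed on the 4 KO arrays, both higher, and the median log2 change was -0.03. Hnf4a, a nuclear receptor that activates apolipoprotein genes, was at 105 and 124 at day 8 and 213 and 219.8 at day 15 (log2 change 0.92, adjusted p = 0.00801 on the 4 KO arrays), although its 4 probe sets lay between -0.17 and 1.00. Shh, the hedgehog ligand of gut and notochord, was at 138 and 175 at day 8 and 298 and 428 at day 15 (log2 change 1.20, SE 0.22, adjusted p = 0.0117), with all 4 arrays in order of day. Sox17, which specifies definitive endoderm, was at 1170.5 and 1074 at day 8 and 1043 and 931 at day 15. Foxa2, which opens chromatin in the same lineage, was at 842 and 780.3 at day 8 and 719 and 758 at day 15. Both were slightly lower at day 15, with log2 changes of -0.19 and -0.13. Gata4 and Gata6, factors of extraembryonic endoderm and heart, had log2 changes of 0.24 and 0.42. None of these 4 passed either fit.

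**Figure D2:**
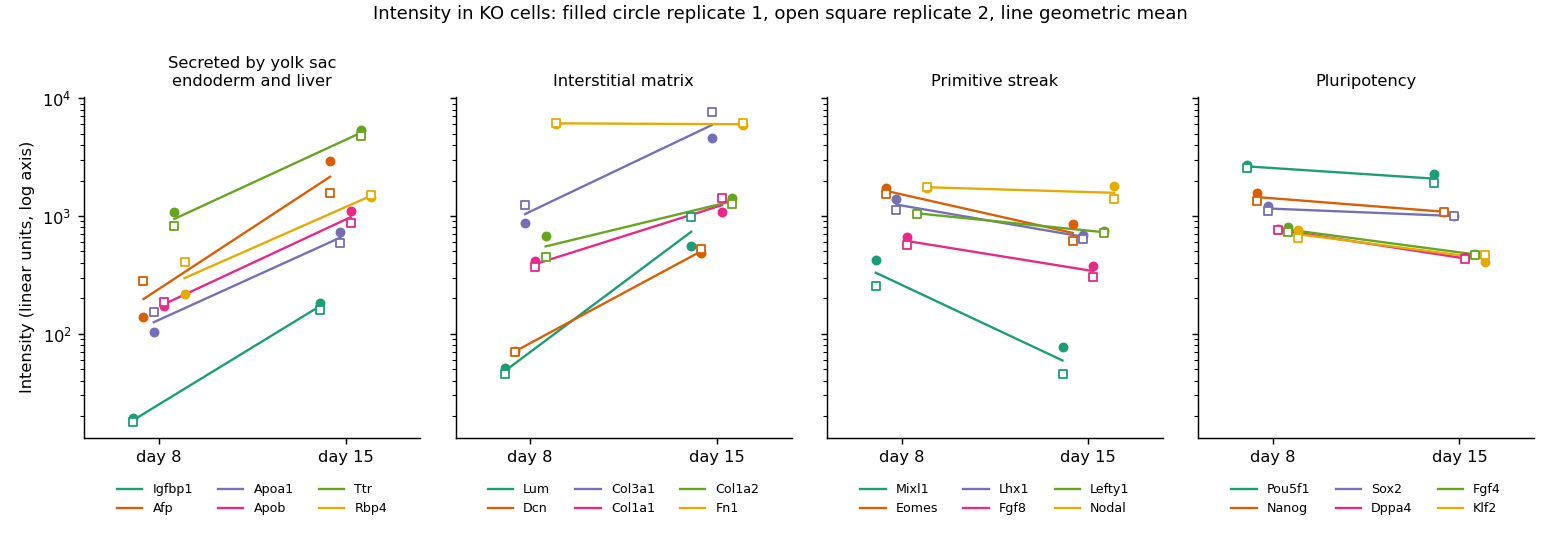
Linear intensity (log axis) of 24 genes on the 2 day 8 and the 2 day 15 KO arrays, in 4 panels of yolk sac and liver proteins, matrix, primitive streak with Nodal signals, and pluripotency, where a filled circle is replicate 1 and an open square replicate 2. Yolk sac and most matrix genes sit clearly higher at day 15, Mixl1 and Eomes lower, and Pou5f1, Nanog, Sox2, Nodal and Fn1 within a small distance of their day 8 values.

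Interstitial matrix had the next highest median. Of 23 measured genes, 11 passed on the 4 KO arrays as higher and none as lower. Without overlap, 17 were higher at day 15 (background 24.4% of all genes). The median log2 change was 0.96 (2.07 in WT cells). Lum, a small leucine-rich proteoglycan that spaces collagen fibrils, was at 50.9 and 45.5 at day 8 and 553 and 976 at day 15. Its log2 change of 3.93 was the largest of any gene in KO cells with a mean of at least 100 at either day (SE 0.90, adjusted p = 2.89e-04 on the 4 KO arrays and 0.452 on 8). Dcn, a proteoglycan of the same kind, was at 72.0 and 69.8 at day 8 and 482 and 527 at day 15. Its log2 change was 2.83 (SE 0.65, adjusted p = 1.19e-05 on the 4 KO arrays and 0.452 on 8), though its other probe set had a log2 change of 0.40. Col3a1, the fibrillar collagen of soft tissue, was at 866 and 1246 at day 8 and 4590.5 and 7616 at day 15. Col1a1, that of bone and skin, was at 412 and 371 at day 8 and 1076 and 1423 at day 15. Neither overlapped between days (log2 change 2.51 and 1.66), but only Col1a1 passed on the 4 KO arrays (adjusted p = 4.30e-04, against 0.0711 for Col3a1).

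Col1a2, the partner chain of Col1a1, was at 673 and 453 at day 8 and 1424 and 1254 at day 15. Col6a1, a chain of the microfibrillar collagen, was at 198 and 213 at day 8 and 481 and 633 at day 15. Col6a2, a further chain of it, was at 185 and 156 at day 8 and 353 and 527 at day 15. All 3 were higher at day 15 without overlap and passed on the 4 KO arrays (adjusted p = 0.00983, 0.00123 and 0.00664). Lox, the enzyme that crosslinks collagen, was at 169 and 116 at day 8 and 251 and 293 at day 15 (log2 change 0.96, adjusted p = 0.0209 on the 4 KO arrays). Fn1, fibronectin, was at 6044 and 6191 at day 8 and 5923 and 6102 at day 15, a log2 change of -0.03 with overlap. Mgp, an inhibitor of calcification, had a log2 change of -0.21 and passed neither fit. The part of the feeder fibroblasts in these values was not tested.

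Of 17 enzymes that act on matrix, 4 passed on the 4 KO arrays as higher and none as lower, with a median of 0.19. Mmp2, a gelatinase, was at 620.5 and 660.0 at day 8 and 1091 and 1347 at day 15 (log2 change 0.92, adjusted p = 0.00329 on the 4 KO arrays). P4ha2, a subunit of the prolyl hydroxylase that collagen folding needs, is in the hypoxia response list and not among these 17. It was at 289 and 251 at day 8 and 557 and 553 at day 15 (log2 change 1.05, adjusted p = 0.00166). Basement membrane genes had a median of 0.43, and 4 of 15 passed as higher on the 4 KO arrays. Sparc, a collagen-binding glycoprotein, was at 4178 and 4256 at day 8 and 6305 and 6657 at day 15. Col4a1 was at 3808 and 3552 at day 8 and 5335 and 5096 at day 15. Lamb1, a laminin chain, was at 2368 and 2199.5 at day 8 and 3359 and 3033 at day 15. These moves were small, of 0.62, 0.50 and 0.48 on the log2 scale, but larger than the spread of either pair. Adjusted p was 5.73e-04, 0.00294 and 0.00983 on the 4 KO arrays, and 0.667, 0.796 and 0.776 on 8 arrays. Lama1, a laminin chain of early basement membranes, was at 311 and 161 at day 8 and 437 and 275 at day 15. Srgn, a proteoglycan of secretory granules and of parietal endoderm, was at 438 and 256 at day 8 and 577 and 382 at day 15. Both overlapped between days and were higher in replicate 1 at each day.

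Imprinted genes, which are read from 1 parental copy, had a median log2 change of 0.20, with 6 of 24 passing as higher on the 4 KO arrays and none as lower. Dlk1, a Notch-like surface protein of fetal mesenchyme and liver, was at 444 and 762 at day 8 and 3433 and 3998 at day 15. Plagl1, a zinc finger factor, was at 1118 and 1545 at day 8 and 4836 and 6433 at day 15. Neither gene overlapped between days, with log2 changes of 2.67 (SE 0.54) and 2.09 (SE 0.61). Both passed on the 4 KO arrays (adjusted p = 0.0246 and 0.017) and not on 8 (adjusted p = 0.435 and 0.505). Igf2, the fetal growth factor, was at 6929.9 and 8247 at day 8 and 11226 and 12774 at day 15. Meg3, the long noncoding RNA next to Dlk1, was at 3208 and 2847 at day 8 and 4342 and 4234 at day 15. Their log2 changes were 0.66 and 0.50, and both passed on the 4 KO arrays (adjusted p = 0.0124 and 0.00598), with the probe sets of Meg3 between -0.19 and 0.65. Mest, a hydrolase of fetal mesoderm, lay on the other side, at 161 and 254 at day 8 and 128 and 87.0 at day 15 (log2 change -0.94, adjusted p = 0.077 on the 4 KO arrays).

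Primitive streak genes were among the largest moves downward. Of 20 measured, 4 passed on the 4 KO arrays as lower and 1 as higher, and 10 were lower without overlap (background 26.5% of all genes). The median was -0.27 over all 20 (-0.66 in WT cells). Mixl1, a homeobox factor of the streak, was at 426 and 256 at day 8 and 76.8 and 46.0 at day 15. It was the only gene with a mean of at least 100 at either day that was lower by over 2 log2 units (log2 change -2.47, SE 0.45, adjusted p = 0.0111 on the 4 KO arrays and 0.381 on 8). Eomes, a T-box factor of streak and endoderm, was at 1736 and 1539 at day 8 and 848 and 609 at day 15. A bright signal of Eomes remained at day 15 (log2 change -1.19, SE 0.39, adjusted p = 0.00456 on the 4 KO arrays and 0.538 on 8). Lhx1, a homeobox factor of the anterior streak, was at 1399.8 and 1116 at day 8 and 693 and 642 at day 15. Fgf8, the ligand that streak cells need to migrate, was at 669.8 and 564 at day 8 and 379 and 307 at day 15. Both were lower without overlap (log2 change -0.91 and -0.85, adjusted p = 0.00438 and 0.0108 on the 4 KO arrays). Pdgfra, a receptor of paraxial mesoderm and its mesenchyme, was the member that was higher, at 367 and 280.1 at day 8 and 521 and 533 at day 15 (log2 change 0.72, adjusted p = 0.0202). Cdx2, a factor of the posterior embryo, was at 203 and 170.1 at day 8 and 139 and 144 at day 15 and passed neither fit.

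In the Nodal pathway, which induces the streak, the ligand and its co-receptor overlapped between days while some other genes of the list were lower. Nodal was at 1732 and 1778 at day 8 and 1791 and 1383 at day 15 (log2 change -0.16). Tdgf1, the co-receptor Cripto, was at 3789 and 3276 at day 8 and 3438 and 2678 at day 15 (log2 change -0.22). Neither passed either fit. Lefty1, a secreted inhibitor that Nodal itself induces, was at 1067 and 1043 at day 8 and 748 and 711 at day 15 (log2 change -0.53, SE 0.15, adjusted p = 0.0117 on the 4 KO arrays). Foxh1, the DNA-binding partner of Smad2 and Smad3, was at 737 and 803 at day 8 and 540.4 and 441 at day 15. Gdf3, a ligand of the same family, was at 277 and 252 at day 8 and 151 and 176 at day 15. Both were lower without overlap (adjusted p = 0.0175 and 0.0193 on the 4 KO arrays). The receptor Acvr1b and the signal transducers Smad2 and Smad3 had changes of 0.26, 0.08 and 0.21 on the log2 scale. Over the 14 genes of the list, 3 passed on the 4 KO arrays as lower, none as higher, and the median was -0.09 (-0.81 in WT cells).

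Pluripotency factors were lower by small steps and stayed bright. Of 10 measured core factors, 4 passed on the 4 KO arrays as lower and all 10 had a negative change, with a median of -0.29 (-1.64 in WT cells). Pou5f1 (Oct4), the POU factor at the centre of the network, was at 2719 and 2559.9 at day 8 and 2259 and 1909 at day 15. Nanog, a homeobox factor, was at 1561 and 1341 at day 8 and 1088 and 1085 at day 15. Sox2, the partner of Oct4 on DNA, was at 1219 and 1101 at day 8 and 995 and 1006 at day 15. Their log2 changes were -0.35, -0.41 and -0.21, and Nanog alone of these passed on the 4 KO arrays (adjusted p = 0.0371, against 0.0601 and 0.219). Dppa4, a chromatin protein of pluripotent cells, was at 772 and 756 at day 8 and 446 and 428 at day 15. Dppa2, its binding partner, was at 668 and 539 at day 8 and 334 and 385 at day 15. They had the largest changes of the list, of -0.80 and -0.74, and passed on the 4 KO arrays (adjusted p = 0.00261 and 0.0167) but not on 8 (adjusted p = 0.69 and 0.723). Sall4, a zinc finger factor of the same network, was at 2611 and 2252 at day 8 and 1861 and 1749 at day 15 (log2 change -0.43, adjusted p = 0.0252). Lin28a, the RNA-binding protein that blocks let-7 maturation, was at 1591 and 1699 at day 8 and 1759.7 and 1453 at day 15 (log2 change -0.04).

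All 17 measured naive factors had a negative change, and 14 were lower without overlap (background 26.5% of all genes). On the 4 KO arrays 6 passed, and the median was -0.44 (-0.92 in WT cells). Klf2, a zinc finger factor, was at 757 and 648 at day 8 and 406 and 468 at day 15. Tbx3, a T-box factor, was at 388 and 324 at day 8 and 216 and 222 at day 15. Nr0b1 (Dax1), an orphan nuclear receptor, was at 211 and 177 at day 8 and 117 and 97.4 at day 15. Each had both day 15 arrays below both day 8 arrays. Their log2 changes were -0.68, -0.70 and -0.86 (adjusted p = 0.0152, 0.0173 and 0.0167 on the 4 KO arrays). Dppa5a, an RNA-binding protein, was at 11626 and 11029 at day 8 and 9444 and 9684 at day 15. Fgf4, the ligand that starts exit from the naive state, was at 806 and 729.6 at day 8 and 480.0 and 464 at day 15. Both passed on the 4 KO arrays as lower (adjusted p = 0.0191 and 0.00616). Esrrb, an orphan nuclear receptor, was at 339.9 and 307 at day 8 and 256 and 221 at day 15. Zfp42 (Rex1), a zinc finger protein, was at 145 and 163 at day 8 and 92.6 and 113 at day 15. Both lay lower at day 15 without overlap, and neither gene passed either fit. Klf4, at 600.4 and 509 at day 8 and 530.0 and 556 at day 15, overlapped between days. So did Tfcp2l1, at 383 and 367 at day 8 and 285 and 373 at day 15.

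Of 12 measured genes of the primed epiblast, 3 passed on the 4 KO arrays as lower, and the median was -0.37 (-1.74 in WT cells). Without overlap, 9 were lower (background 26.5% of all genes). Fgf5, the marker ligand of primed epiblast, was at 1111 and 1139 at day 8 and 1269 and 867 at day 15. Pou3f1, a POU factor, was at 927 and 1084 at day 8 and 1115 and 688 at day 15. In both, 1 day 15 array was above and 1 below the day 8 pair. Otx2, a homeobox factor, was at 1301 and 1275 at day 8 and 1037 and 959 at day 15. Foxd3, a forkhead factor, was at 202 and 226 at day 8 and 125 and 113 at day 15. Both were lower without overlap (log2 change -0.37 and -0.84, adjusted p = 0.0378 and 0.0102 on the 4 KO arrays). Dnmt3b, the de novo DNA methyltransferase of this state, was at 5024 and 4616 at day 8 and 4003 and 3145 at day 15 (log2 change -0.44, adjusted p = 0.0592).

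**Figure D3:**
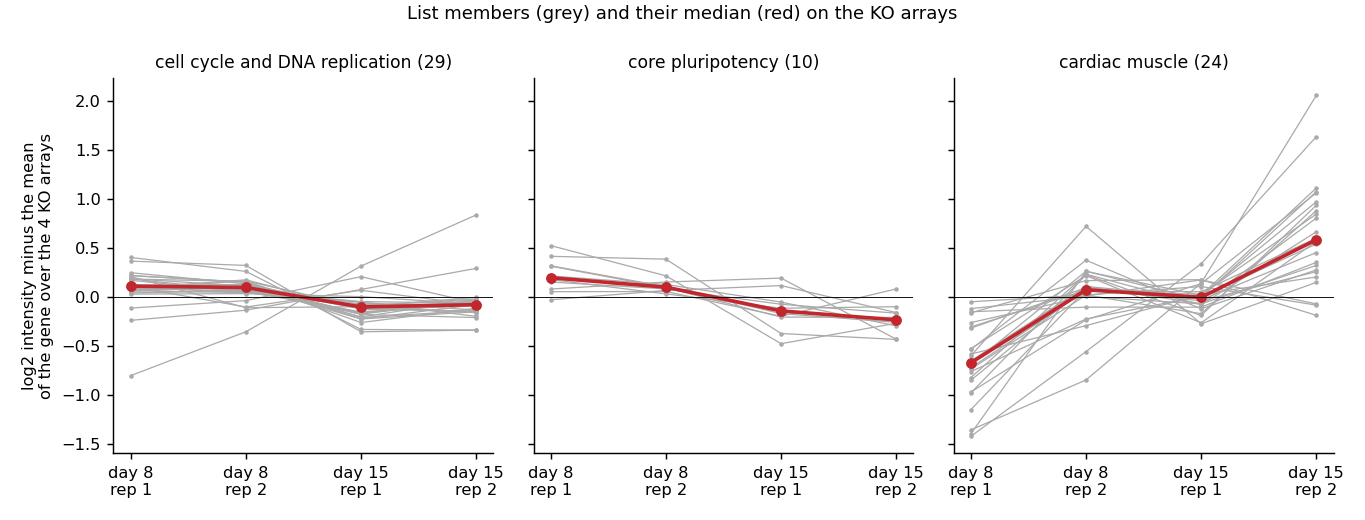
Log2 intensity of the members of 3 lists on the 4 KO arrays (29 cell cycle and replication genes, 10 core pluripotency factors, 24 cardiac muscle genes), 1 line per gene, each centred on its own mean over the 4 arrays. Cell cycle and pluripotency genes step down slightly between days, whereas most cardiac genes are higher in replicate 2 than in replicate 1 at both days.

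Proliferation genes were slightly lower at day 15. Of 29 measured cell cycle and replication genes, 26 had a negative change and 24 were lower without overlap (background 26.5% of all genes). On the 4 KO arrays 5 passed as lower, and the median was -0.21 (-0.48 in WT cells). The 6 subunits of the replicative helicase from Mcm2 to Mcm7 had changes of -0.17, -0.37, -0.22, -0.39, -0.23 and -0.15 on the log2 scale. Mcm5 was at 4057 and 3755 at day 8 and 3019 and 2953 at day 15 (adjusted p = 0.0124 on the 4 KO arrays). Cdc6, which loads that helicase, was at 471 and 457 at day 8 and 286 and 289 at day 15. Ccne1, cyclin E1, was at 1162 and 1052 at day 8 and 697 and 694 at day 15. Day 15 lay below day 8 in both (log2 change -0.69 and -0.67, adjusted p = 0.0082 and 0.00546 on the 4 KO arrays). Mki67, a general marker of cycling cells, was at 1861 and 1836 at day 8 and 1671 and 1753 at day 15. Top2a, the topoisomerase of dividing cells, was at 3053 and 2984 at day 8 and 2725 and 2706 at day 15. Neither passed either fit. Ccnd2, cyclin D2, differed in sign from most of the list, at 1089 and 1485 at day 8 and 2365 and 3397 at day 15 (log2 change 1.16, adjusted p = 0.0771 on the 4 KO arrays).

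Targets of p53 and cell cycle inhibitors had a median of 0.22 over 20 genes, in WT cells -0.48. Without overlap, 13 were higher (background 24.4% of all genes), 2 of them passing on the 4 KO arrays. Cdkn1a (p21), which halts the cycle, was at 3549 and 3929.5 at day 8 and 4549 and 5139 at day 15 (log2 change 0.37, adjusted p = 0.0268). Ccng1, cyclin G1, was at 3645 and 3666 at day 8 and 4382 and 4412 at day 15 (log2 change 0.27, adjusted p = 0.0262). Mdm2, the ubiquitin ligase that p53 induces against itself, was at 1692 and 1685 at day 8 and 1970.3 and 2025 at day 15 (log2 change 0.24, adjusted p = 0.0832). Pmaip1 (Noxa), a pro-apoptotic target, was at 755 and 762 at day 8 and 417 and 342 at day 15. Sesn2, a stress-response target, was at 978 and 714 at day 8 and 513 and 562 at day 15. Both were lower without overlap and passed on the 4 KO arrays (adjusted p = 0.00251 and 0.0383). Cdkn2a, which yields the inhibitor p16, was at 262 and 287 at day 8 and 277 and 387 at day 15. Cdkn2b, the inhibitor p15, was at 385 and 475 at day 8 and 436 and 548 at day 15. Both, which mark senescent cells, overlapped between days. None of the 20 passed on 8 arrays, and whether the list's change differs between genotypes was tested gene by gene only, with no member passing.

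Telomere and telomerase proteins, the group nearest to the deleted RNA, had a median of -0.15 over 22 genes, with 3 passing as lower on the 4 KO arrays. Dkc1, the dyskerin that holds Terc in the enzyme, was at 2363 and 2537 at day 8 and 1993 and 1818 at day 15. Nhp2, a partner in the same particle, was at 6543 and 6275 at day 8 and 5073 and 4644 at day 15. Neither overlapped between days (log2 change -0.36 and -0.40, adjusted p = 0.0291 and 0.0082 on the 4 KO arrays). Rtel1, a helicase that unwinds telomere loops, was at 279.6 and 274 at day 8 and 202 and 195 at day 15 (log2 change -0.48, adjusted p = 0.043). Tert, the catalytic subunit, was at 139.9 and 114 at day 8 and 103 and 98.3 at day 15. The shelterin genes Terf1, Terf2, Tinf2, Pot1a, Acd and Terf2ip, which cap the telomere, had changes between -0.19 and 0.13 on the log2 scale, and none passed either fit. Checkpoint and repair genes had a median of -0.18 over 19, with Xrcc5 (Ku80) alone passing on the 4 KO arrays, at 347 and 327 at day 8 and 212 and 244 at day 15 (adjusted p = 0.0291).

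Of the DNA methylation enzymes and their opponents, 3 of 11 passed on the 4 KO arrays as lower and none as higher, with a median of -0.22. Tet1, which oxidises methylated cytosine, was at 1134 and 1165 at day 8 and 683 and 696 at day 15 (log2 change -0.74, SE 0.19, adjusted p = 0.00243 on the 4 KO arrays). Dnmt3l, a cofactor of de novo methylation, was at 847 and 831 at day 8 and 583 and 463 at day 15. Uhrf1, which guides maintenance methylation, was at 1696 and 1675 at day 8 and 1379 and 1296 at day 15. Neither pair of days overlapped (adjusted p = 0.0154 and 0.0393). Dnmt1, the maintenance enzyme, was at 1313 and 1339 at day 8 and 1168 and 1106 at day 15 and passed neither fit. Of 11 Polycomb repressive complex 2 genes, which place the H3K27 methyl mark, Eed alone passed on the 4 KO arrays, at 1569 and 1575 at day 8 and 1213 and 1285 at day 15 (log2 change -0.33, adjusted p = 0.0412). Ezh2 was at 1008 and 979 at day 8 and 805 and 834 at day 15 (log2 change -0.28, adjusted p = 0.102). Suz12 was at 1834 and 1501 at day 8 and 1382 and 1479 at day 15 (log2 change -0.21).

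The medians of signalling lists were small, from -0.10 for FGF genes to 0.15 for retinoic acid genes, while single members differed more. Of 19 FGF genes, 2 passed on the 4 KO arrays as lower and none as higher. Without overlap, 10 of them were lower (background 26.5% of all genes) and 4 higher (background 24.4%). Fst, follistatin, which traps activin and some BMPs, was at 389 and 245 at day 8 and 204 and 173 at day 15, lower without overlap but past neither threshold (log2 change -0.72, SE 0.41, adjusted p = 0.687 on 8 arrays and 0.0876 on the 4 KO arrays). Bmp4, a ligand that patterns mesoderm, was at 975 and 1255 at day 8 and 682 and 755 at day 15. Bmp2, its close relative, was at 1316 and 1442 at day 8 and 1008 and 950.4 at day 15. Of the 14 BMP pathway genes these were the 2 that passed on the 4 KO arrays, both as lower (adjusted p = 0.0252 and 0.0164). Among the usual targets of BMP, Id1, an inhibitor of basic helix-loop-helix factors, was at 761 and 796 at day 8 and 749 and 914 at day 15. Id3, of the same family, was at 1012 and 1017 at day 8 and 924 and 1091 at day 15. Id1 and Id3 overlapped between days, whereas Id2, at 606 and 636 at day 8 and 798 and 851 at day 15, was higher without overlap (adjusted p = 0.0373). Msx2, a homeobox factor, was at 496 and 398 at day 8 and 246 and 272 at day 15. Msx1, its relative, was at 376 and 244 at day 8 and 155 and 154 at day 15. Both were lower without overlap (adjusted p = 0.014 and 0.024), and the median over 16 BMP targets was 0.05.

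Of 22 Wnt pathway genes 3 passed on the 4 KO arrays, all as lower. Sp5, a target of the pathway, was at 309.9 and 239.8 at day 8 and 148 and 174 at day 15 (adjusted p = 0.0255). Lef1, its DNA-binding effector, was at 269 and 269.8 at day 8 and 197 and 190.0 at day 15 (adjusted p = 0.044). Wnt4, a ligand, was at 588 and 545 at day 8 and 347 and 365 at day 15 (adjusted p = 0.00951). In the retinoic acid list, 4 of 16 genes passed as higher, namely Rbp4 above, Crabp1, Crabp2 and Aldh1a1. Crabp1, a cellular binding protein of retinoic acid, was at 124 and 89.0 at day 8 and 319 and 360.5 at day 15 (adjusted p = 0.00125). Crabp2, which hands retinoic acid to its receptor, was at 84.7 and 94.9 at day 8 and 155 and 206 at day 15 (adjusted p = 0.013). Aldh1a1, a retinaldehyde dehydrogenase, was dim on all 4 arrays (log2 change 1.27, adjusted p = 0.00983). Cyp26a1, the enzyme that degrades retinoic acid, was lower, at 2055 and 2412 at day 8 and 1690.4 and 1571 at day 15 (adjusted p = 0.0255). Hox genes were dim: 6 of 23 reached a mean of 100 at either day, and 12 were higher without overlap (background 24.4% of all genes). Their median was 0.20 (0.61 in WT cells). The 1 call on the 4 KO arrays was Hoxd1, at 52.3 and 42.1 at day 8 and 26.8 and 21.4 at day 15.

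Neural progenitor genes had a median change near 0, and 14 of 20 neuronal genes had a negative change. Of 23 progenitor genes 2 passed on the 4 KO arrays, both as higher, with a median of 0.03. They were Zic1, given above, and Lhx2, a homeobox factor, at 14.1 and 14.4 at day 8 and 24.9 and 32.4 at day 15. Nes, nestin, was at 476 and 499.6 at day 8 and 519.6 and 502 at day 15 (log2 change 0.07). Olig1, a factor of oligodendrocyte precursors, was at 445 and 468 at day 8 and 726 and 515 at day 15 (log2 change 0.42, adjusted p = 0.162). Of the 20 neuronal genes 10 were lower without overlap (background 26.5% of all genes) and 3 passed on the 4 KO arrays, all as lower, with a median of -0.18. Nefl, the light neurofilament, was at 2116 and 1748 at day 8 and 956 and 828 at day 15 (log2 change -1.11, SE 0.37, adjusted p = 0.00133 on the 4 KO arrays). Ina, a further intermediate filament of neurons, was at 243 and 176 at day 8 and 128 and 112 at day 15. Tubb3, a neuronal tubulin, was at 163 and 186 at day 8 and 98.0 and 123 at day 15. Day 15 lay below day 8 in both (adjusted p = 0.0326 and 0.0428).

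Cardiac muscle genes differed by replicate number as well as by day. The list's median change was 0.57 and 22 of 24 measured genes had a positive change, with medians of 0.63 between the arrays numbered 1 and 0.45 between those numbered 2. None passed either fit, and 5 were higher without overlap (background 24.4% of all genes). In 21 of the 24 (87.5%), replicate 2 was above replicate 1 at both days, against 28.0% of all genes, by a median of 0.75 log2 units at day 8 and 0.65 at day 15. Actc1, cardiac actin, was at 291 and 680.1 at day 8 and 643 and 1361 at day 15. Myl7, an atrial myosin light chain, was at 259 and 818 at day 8 and 690.4 and 1476 at day 15. Tnnc1, cardiac troponin C, was at 833 and 1439 at day 8 and 1428 and 2088 at day 15. In each of these genes replicate 2 of day 8 was brighter than replicate 1 of day 15. Myh6, a heavy chain of cardiac myosin, was at 56.1 and 102 at day 8 and 191 and 469 at day 15. Myl2, a light chain of ventricular myosin, was at 67.3 and 95.9 at day 8 and 190.5 and 719.6 at day 15. These 2 members had the largest changes and did not overlap between days. Whether arrays of the same number come from the same culture is not given in the sources used here. In the smooth muscle list replicate 2 was above replicate 1 at both days in 10 of 15 genes, by smaller medians of 0.13 and 0.14. Acta2, smooth muscle actin, was at 7027 and 8219 at day 8 and 8367 and 10121 at day 15. Cnn1, calponin, was at 135 and 144 at day 8 and 77.5 and 89.9 at day 15. Actg2, the enteric smooth muscle actin, was at 80.0 and 67.6 at day 8 and 378 and 798 at day 15. Cnn1 was lower and Actg2 higher (adjusted p = 0.0221 and 0.0244 on the 4 KO arrays), while Acta2 passed neither fit.

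Simple epithelium genes moved little. Krt8, a keratin of simple epithelia, was at 13032 and 14146 at day 8 and 12062 and 12113 at day 15. Epcam, an adhesion protein of epithelia, was at 2486 and 2343 at day 8 and 2052 and 2109 at day 15. Of 20 genes 3 passed on the 4 KO arrays, all as lower, and the median was -0.10. They were the splicing factor Esrp1, the transcription factor Grhl2 and the sorting adaptor Ap1m2, with log2 changes of -0.45, -0.42 and -0.46. Of 16 basal and 16 stratified epidermis genes none passed either fit, and medians were 0.18 and 0.08. Most were dim, and 6 basal and 3 stratified genes reached a mean of 100 at either day in KO cells. Without overlap, 8 basal and 3 stratified genes were higher (background 24.4% of all genes), and 3 and 2 were lower (background 26.5%). Blood and vessel markers were mostly dim: 1 of 15 erythroid genes, 4 of 20 macrophage and platelet genes and 8 of 20 endothelial genes reached a mean of 100 at either day in KO cells. Csf1r, the macrophage growth factor receptor, was at 243 and 197 at day 8 and 336 and 426 at day 15 (log2 change 0.79, adjusted p = 0.022). Its log2 change in WT cells was 3.17. Of the 20 endothelial genes 1 passed on the 4 KO arrays as higher and 1 as lower, with a median of 0.04. The higher was Ramp2, an endothelial receptor partner, at 168 and 193 at day 8 and 290.4 and 334 at day 15 (adjusted p = 0.0129). The lower was Etv2, with a mean of 132.1 at day 8 and 67.96 at day 15 (log2 change -0.99, adjusted p = 0.0391). Of the globins that define yolk sac red cells, Hba-x was at 52.9 and 43.4 at day 8 and 42.7 and 44.0 at day 15. Hbb-bh1 was at 30.2 and 37.6 at day 8 and 29.7 and 22.9 at day 15. Both were dim and passed neither fit.

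Housekeeping lists were nearly flat. The 19 cytosolic ribosomal protein genes had changes between -0.13 and 0.08 and the 23 respiratory chain genes between -0.28 and 0.08, and none passed either fit. Lysosomal genes were slightly higher, with 5 of 18 passing on the 4 KO arrays and a median of 0.19. Ctsl, cathepsin L, was at 4168 and 4181 at day 8 and 5481 and 5688 at day 15. Lamp2, a lysosomal membrane protein, was at 1256 and 1409 at day 8 and 1856 and 2001 at day 15. Both were higher without overlap (adjusted p = 0.00402 and 0.0114). Hypoxia response genes gave 5 of 18 as higher, with a median of 0.14, and interferon response and antigen presentation genes 5 of 20, with a median of 0.11. Of the latter, B2m, the light chain of class I molecules, was at 1562 and 1533 at day 8 and 2117 and 2175 at day 15 (adjusted p = 0.00819).

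Small moves were selected for agreement between replicates, so that agreement is not itself a result. A move was counted as small and consistent when the log2 change lay between 0.3 and 1, both pairs agreed within 0.2, the groups did not overlap and the mean was at least 100. In KO cells 345 genes met this as higher (1.9%) and 549 as lower (3.02%). In WT cells 321 (1.76%) and 509 (2.8%) did. The limit of 0.2 falls unequally on the genotypes, because the median day 8 pair difference was 0.25 in WT and 0.08 in KO cells. The counts of KO and WT cells are therefore not on equal terms. Over probe sets, the KO moves were 516 higher and 993 lower as defined, 670 and 872 after quantile normalization, and 422 and 1171 with arrays centred on their medians. Among the brightest of the lower ones, beside Nhp2, was Ddx39a, an RNA helicase of mRNA export, at 5163 and 5186 at day 8 and 3892 and 3674 at day 15. Apex1, a base excision repair nuclease, was at 4462 and 4048 at day 8 and 3654 and 3213 at day 15. Ranbp1, a partner of the nuclear transport GTPase Ran, was at 3772 and 3678 at day 8 and 2697 and 2941 at day 15. Their log2 changes were -0.45, -0.31 and -0.40 (adjusted p = 0.0036, 0.0564 and 0.0121 on the 4 KO arrays). Nap1l1, a histone chaperone, was at 3602 and 3507 at day 8 and 2335 and 2574 at day 15. Ahcy, which clears S-adenosylhomocysteine, was at 3541 and 3450.0 at day 8 and 2699 and 2555 at day 15. S100a6, a calcium-binding protein, was at 4024 and 4103 at day 8 and 3280.4 and 3239.8 at day 15. These were lower by similar steps, with log2 changes of -0.54, -0.41 and -0.32. Among the brightest of the higher ones were Sparc, Col4a1, Ctsl, Meg3, Cdkn1a and Spink1, given above. Cst3, the secreted protease inhibitor cystatin C, was at 2511 and 2597 at day 8 and 3424 and 3262 at day 15. Tcn2, a carrier of vitamin B12, was at 3181 and 3548 at day 8 and 4199.7 and 4278 at day 15. Pik3cd, a catalytic subunit of phosphoinositide 3-kinase, was at 5092 and 4690.0 at day 8 and 6659 and 5843 at day 15. Their log2 changes were 0.39, 0.34 and 0.35, with the probe sets of Pik3cd between -0.27 and 0.35. All genes named here as small moves passed on the 4 KO arrays apart from Apex1, and none passed on 8 arrays.

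Some of the larger moves lay outside the lists and were chosen by size. Ptn, the heparin-binding growth factor pleiotrophin, was at 45.7 and 85.6 at day 8 and 377 and 536 at day 15 (log2 change 2.85, adjusted p = 0.0108 on the 4 KO arrays). Igfbp7, a further binding protein of insulin-like growth factors, was at 338 and 199 at day 8 and 979.6 and 1246 at day 15 (log2 change 2.09, adjusted p = 0.0167). Selenop, the selenium carrier of plasma, was at 709 and 930.4 at day 8 and 2529.8 and 2316 at day 15 (log2 change 1.58, adjusted p = 4.30e-04). All 3 were higher without overlap. Snhg3, a host transcript of small nucleolar RNAs, was at 968 and 759 at day 8 and 352 and 356 at day 15 (log2 change -1.27, adjusted p = 0.00115). Slpi, a secreted protease inhibitor, was at 224 and 189 at day 8 and 103 and 82.4 at day 15 (log2 change -1.16, adjusted p = 0.00546). Penk, the enkephalin precursor, was at 139 and 145 at day 8 and 62.8 and 73.0 at day 15 (log2 change -1.07, adjusted p = 0.00546). These were lower without overlap, and none of the 6 passed on 8 arrays.

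**Figure D4:**
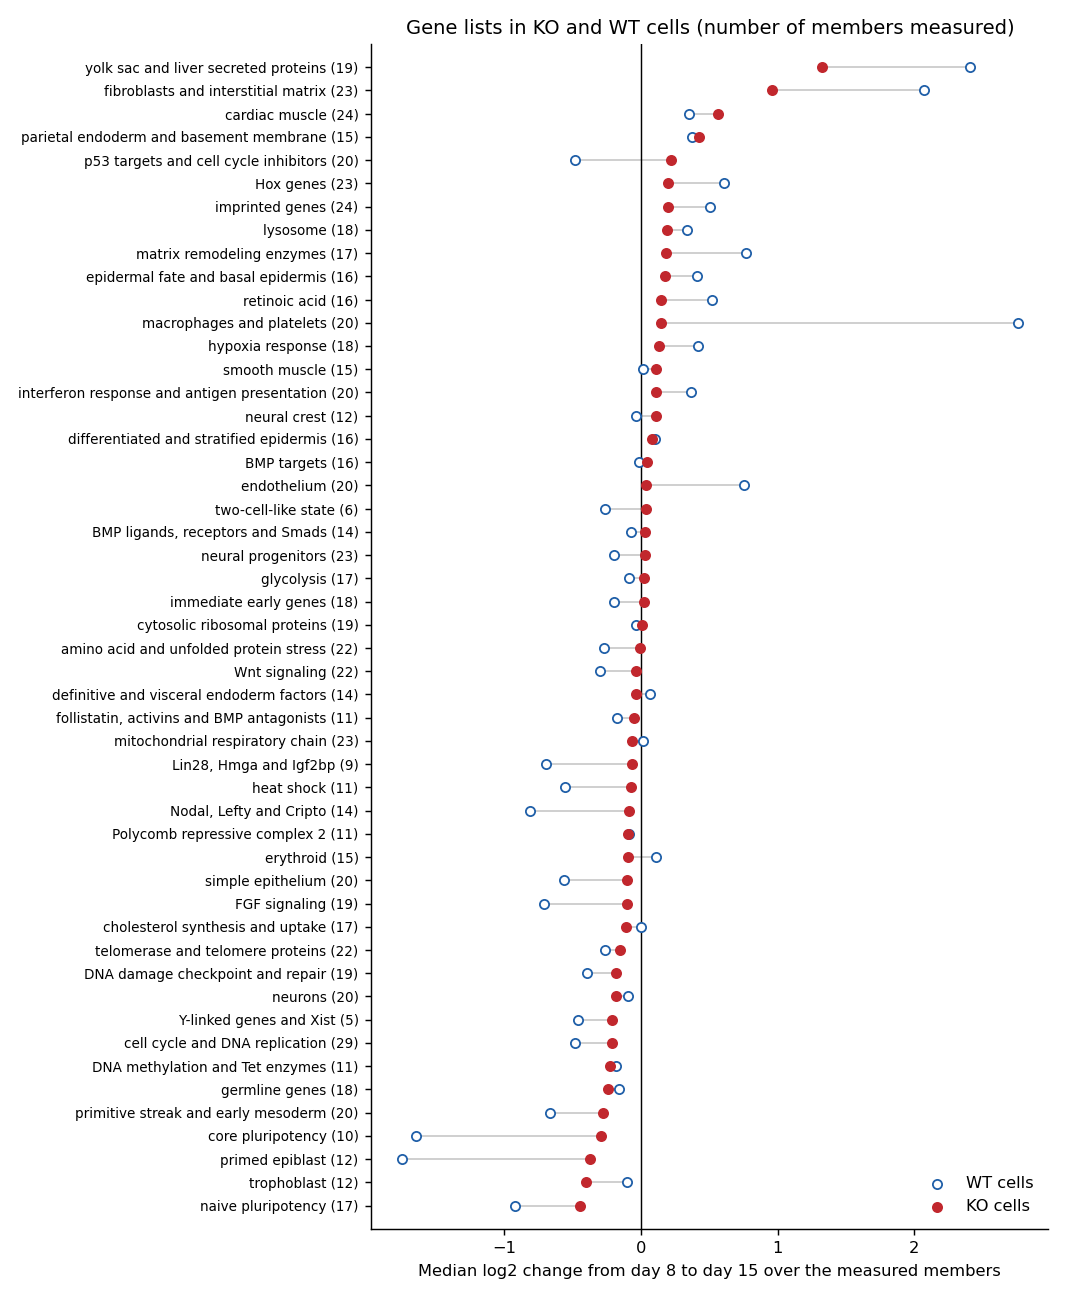
Median log2 change from day 8 to day 15 (horizontal axis) of 50 gene lists (vertical axis), filled red for KO cells and open blue for WT cells. In KO cells the yolk sac and liver list (1.33) and the interstitial matrix list (0.96) lie farthest to the right, the naive list (-0.44) farthest to the left, and most KO points lie nearer to 0 than the WT points.

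Most changes in KO cells had the sign of the change in WT cells and were smaller. Over the 16613 probe sets with a mean of at least 100 on 8 arrays, the least squares slope of the KO change on the WT change was 0.365 and 75.2% had the same sign, as a description over probe sets, which are not independent. Of 1078 bright probe sets called higher in WT, with a median WT log2 change of 0.90, 94.1% were higher in KO as well, with a median of 0.34. Of 2134 called lower, with a median of -0.76, 94.2% were lower in KO, with a median of -0.27. These probe sets were chosen by their WT change, so the WT medians are a description. The test of the difference between both changes (the interaction of genotype and day, on 8 arrays) called 29 probe sets, 3 with the KO change above the WT change (0.00666%) and 26 with it below (0.0577%). In this test 4285 (9.51%) had an unadjusted p under 0.05. The count was 0 to 4 with any 1 KO array left out and 53 to 831 with any 1 WT array left out.

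**Figure D5:**
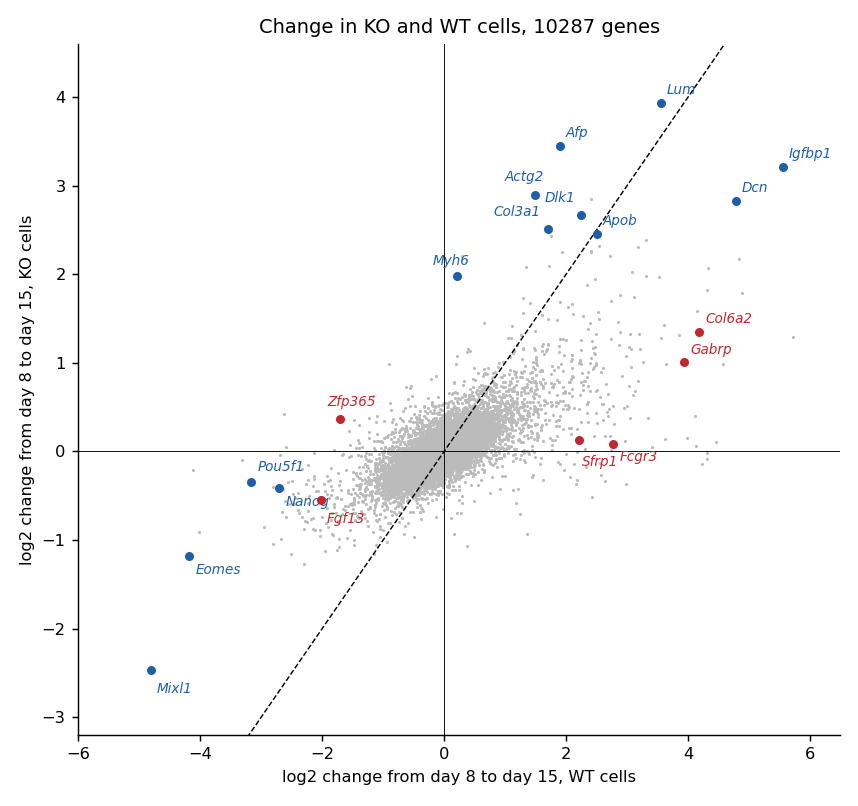
Log2 change from day 8 to day 15 in KO cells (vertical axis) against that in WT cells (horizontal axis) for 10287 genes with a mean of at least 100 in 1 of the 4 groups, with genes called by the test of the difference in red and the dashed line at equal change. The cloud is flatter than the dashed line (least squares slope 0.336), and the red genes lie mostly near 0 in KO and far to the right in WT.

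The 12 called genes taken here, up to 10 each way by size, had a mean of at least 100 in 1 of the 4 groups. In 10 of them, the limit of that choice, the KO change lay below a positive WT change. The called probe set with the largest difference (-3.79, adjusted p = 0.00347) was of Fmod, a small leucine-rich proteoglycan that is not among the 12. In KO cells it was dim, at 16.9 and 14.4 at day 8 and 19.8 and 16.3 at day 15. Col6a2, given above, had a log2 change of 1.35 in KO cells and of 4.19 in WT cells, a difference of -2.84 (SE 0.31, adjusted p = 0.0243). Sfrp1 and Sfrp2, secreted Wnt inhibitors, had log2 changes of 0.13 and 0.40 in KO and of 2.22 and 2.69 in WT (adjusted p = 0.037 and 0.0418). C1qa, a complement subunit of macrophages, was at 25.2 and 26.4 at day 8 and 26.3 and 32.4 at day 15 in KO cells, which is dim throughout. Its log2 change was 0.18 in KO and 2.72 in WT (adjusted p = 0.0243). Nfix, a factor of later muscle and neural development, had log2 changes of 0.65 in KO and 2.69 in WT (adjusted p = 0.0474). Its KO intensities were under 100 throughout, at 63.94 and 55.25 at day 8 and 90.4 and 95.7 at day 15. In the other direction, Fgf13, an intracellular FGF homologue, was at 278 and 283 at day 8 and 179 and 204 at day 15 in KO. Its log2 change was -0.55 in KO and -2.02 in WT (adjusted p = 0.0499). For the yolk sac genes the difference did not pass, with 1.55 for Afp (adjusted p = 0.57) and -0.92 for Apoa1 (adjusted p = 0.621). Neither did it for Mixl1 (2.34, adjusted p = 0.346), Eomes (2.99, adjusted p = 0.165) or Pou5f1 (2.82, adjusted p = 0.267). Tdgf1, given above, had a log2 change of -0.22 in KO and -4.12 in WT, and that difference did not pass either (3.90, adjusted p = 0.149).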

How the data were processed

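Total RNA of each sample was labelled with biotin and hybridised to 1 Affymetrix mouse array. The deposited table holds 1 linear intensity per probe set and array, made by the authors with array software that the submitters' processing notes name as MAS5, version not given in the sources used here. Values of days 8 and 15 share 1 scale, while those of day 0 were scaled apart. Of 45101 probe sets, 64 controls were left out. Values under 1 were set to 1, log2 was taken, and no further normalization was applied. Groups were fitted with limma 3.58.1 (R 4.3.3) with an intensity trend and robust moderation over the 8 arrays of days 8 and 15, and separately over the 4 KO arrays. P-values were adjusted by Benjamini-Hochberg over 45037 probe sets at a threshold of 0.05. The fits were tested on simulated data. A log2 change is the day 15 mean minus the day 8 mean of 2 arrays each, and SE is from the 8-array fit. Of the probe sets, 34945 carried 1 gene symbol, 932 several and 9160 none in the platform annotation, and 34741 were matched to RefSeq by Entrez number. Each of the 18193 genes is represented by its brightest probe set over 8 arrays among those with its symbol alone, so probe sets that disagree are given as a range. Precision is limited by having 2 arrays in each group. The members and the gene lists were chosen with earlier results of these data known. Candidates for naming followed a rule: probe sets past the 8-array test, up to 4 members of each list by intensity, and the study's genes. The rule also took up to 10 each way past the test of the difference, and up to 10 each way of the small consistent moves by intensity. Not all candidates are given in the text, and the study's epidermal genes Trp63, Krt14, Krt5, Krt4 and Krt1 are among those left out. Other genes in the text were chosen after their values were seen. Alternatives covered the offset, quantile and median scaling, a filter on dim probe sets, the moderation, a replicate block, all 12 arrays, the methods' plain test of 2 groups and leaving out each array. Promoter sequences are from RefSeq, GRCm38.p6. Entries of Lum, Dcn and Mixl1 were not used here.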

Additional observations from a re-analysis of the deposited data

Results flagged for a closer look

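The 12 genes given here passed the limma test of the difference between the KO and the WT change from day 8 to day 15. They had a mean intensity of at least 100 in 1 of the 4 groups. They were taken by size of the difference, up to 10 each way, and are not all that passed. Emp2, with a called probe set at -1.71 (adjusted p = 0.0243), is not among them. Zfp365, a zinc finger gene, had a KO change above the WT change by 2.08 on the log2 scale, and Fgf13, described above, by 1.47. In Fgf13 both genotypes were lower at day 15, whereas Zfp365 had a log2 change of 0.37 in KO and -1.71 in WT. In the other 10 the KO change lay below the WT change. The difference was -2.93 for Gabrp, a GABA receptor subunit, -2.84 for Col6a2 and -2.69 for Fcgr3, an immunoglobulin receptor of macrophages. It was -2.55 for C1qa, -2.47 for Iigp1, an interferon-induced GTPase, -2.29 for Sfrp2 and -2.09 for Sfrp1. It was -2.04 for Nfix, -2.03 for Sparcl1, a secreted relative of Sparc, and -1.94 for Sned1, a matrix protein. Of Gabrp, Fcgr3, C1qa, Iigp1, Nfix, Sparcl1 and Sned1, the KO means were under 100 at both days. With the replicate block, 3 probe sets in all passed this test in place of 29.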

How the results depend on the processing

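The number of calls moved with nearly every setting, while directions mostly held, and the cause of each shift was not tested. In the 8-array fit, 2 probe sets were higher in KO cells at day 15. There were 0 with 32 added before log2, 1 after quantile normalization, 0 among probe sets with a mean of at least 100, 0 without trend and robust moderation, 16 with the replicate block, 8 with all 12 arrays and 656 on the 4 KO arrays. The 1 lower probe set became 2 with 32 added, 0 among bright probe sets, 0 without trend and robust moderation and 617 on the 4 KO arrays. The methods' t-test on the 4 arrays called 0 in either direction after Benjamini-Hochberg adjustment and 2034 higher and 2663 lower at an unadjusted p under 0.05. Leaving out each array gave 0 to 21 higher and 0 to 3 lower. The log2 change of Igfbp1 stayed between 2.01 and 3.31 under these settings and that of Crybg1 between -1.48 and -0.58, while that of the called probe set of Zic1 ran from 0.45 to 1.75. Igfbp1 did not pass with 32 added (adjusted p = 0.179) or among bright probe sets (0.0916), Crybg1 did not with all 12 arrays (0.0759), and the called probe set of Zic1 did not with 32 added (0.101) or after quantile normalization (0.0557). The test of the difference between genotypes called 29, which became 48 with 32 added, 17 after quantile normalization, 0 among bright probe sets, 13 without trend and robust moderation, 3 with the replicate block and 190 with all 12 arrays, or 0 to 831 with each array left out. The WT change called 4893, against 367 on the 4 WT arrays, 0 by the methods' t-test after adjustment, and 1518 to 7472 with each array left out. The fit to the 4 KO arrays called 1273, against 23 without trend and robust moderation, 22 without the trend alone, 1190 without robust moderation alone and 3086 with the replicate block, and 232 to 1477 with each KO array left out (232 without replicate 1 of day 8, 671 without replicate 2 of day 8). Its alternatives were added after seeing the data. A ratio of at least 1.8 between linear group means was met by 426 probe sets, against 246 at 2-fold, 170 with 32 added, and 388 to 654 with each array left out. Small consistent moves numbered 1509 probe sets, 552 with pairs within 0.1 and 3179 with a smallest change of 0.2.

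The replicate numbers did not pair the samples by the labels. Deviations of same-numbered KO arrays correlated at 0.03 over all probe sets, 0.11 over bright ones and 0.18 over the 9468 genes with a mean of at least 100 on the 4 KO arrays. The block raised the calls of the 4-array fit, 1269 of which were shared, and no call of the 3 probe sets on 8 arrays was lost with it.

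All 16 list medians of at least 0.2 in size kept their direction under every alternative run. Of the named genes, those that changed sign were close to 0 or split by replicate, apart from Pik3cd and Sfrp1, whose probe sets differ in direction. With each array left out, the log2 change lay between -0.11 and 0.61 for Amn, -0.36 and 1.15 for Cubn, -0.38 and 0.17 for Fgf5, -0.055 and 0.23 for Id1, -0.14 and 0.10 for Id3, -0.14 and 0.094 for Klf4, -0.18 and 0.10 for Lin28a, -0.34 and 0.030 for Nodal, and -0.54 and 0.15 for Pou3f1. After quantile normalization Id3 was 0.021 and Klf4 0.0065. As the mean over all probe sets of the gene, Klf4 was 0.053, Pik3cd -0.012 and Sfrp1 -0.024.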
